A study of Mus musculus with 4 samples.

Results

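Natural killer (NK) cells are innate lymphocytes that kill infected or transformed cells with perforin and granzymes and that secrete interferon gamma and chemokines. In mouse liver they lie beside type 1 innate lymphoid cells (ILC1), which also carry the receptor NKp46, encoded by Ncr1, but make Itga1 and Cxcr6 in place of Eomes. NK cells mature from Cd27-bearing cells to cells with Itgam, Klrg1 and S1pr5, and overlapping subsets express the Ly49 receptors, encoded by the Klra genes.

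The NK cells described here came from 4 libraries of 10x 5′ single-cell RNA sequencing of CD45+ liver cells from female C57BL/6 mice, 1 library per group. The young wild-type library came from untreated mice of 8 weeks. The other 3 came from mice labelled 36 weeks that had received 25 mg/kg diethylnitrosamine (DEN) intraperitoneally on day 14 and were weaned on day 21 to a choline-deficient diet with 60% fat. These DEN/diet mice were wild-type, germline miR-146a-/-, or germline miR-146a-/- Ccl5-/- (double knockout). The paper of the series gives ages of 35 weeks and 2 months, and the number of mice per library was not stated. Young and DEN/diet wild-type mice differed in age, DEN and diet at once, and the parts of these 3 factors cannot be told apart. There were no replicate libraries, the 3 comparisons share libraries, and all 95% intervals cover counting error only.

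The deleted microRNA, miR-146a, restrains signalling to NF-kB through Irak1 and Traf6 in immune cells. Its mature 5p strand is shown because the seed (bases 2 to 8, in capitals) sets which transcripts it can pair with. It lies at chr11:43374435-43374456 on the minus strand of GRCm38.p6 (RefSeq).
miR-146a-5p: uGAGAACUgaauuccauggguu

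NK cells were chosen by a gate on raw UMIs in cells with 600 to 6000 genes and at most 5% mitochondrial UMIs. The gate asked for at least 1 Ncr1 UMI, no Cd3e, Cd8b1 or Csf1r UMI, at least 2 UMIs over Eomes, Itga2, Klra4 and Klra8, and fewer UMIs over the ILC1 genes Itga1, Cxcr6, Cd200r1 and Tnfsf10. It selected 2562 of 36286 kept cells, out of 39121 cells in all. There were 901 NK cells in the young wild-type library, 574 in DEN/diet wild-type, 453 in miR-146a-/- and 634 in the double knockout. Median UMIs per NK cell were 6795, 8620.5, 9906 and 9044.5 in the same order. Barcodes shared between 2 libraries numbered 109 to 150 per pair, of which 0 to 2 were NK cells in both.

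All 6 NK marker genes, Ncr1, Eomes, Klra4, Klra8, Prf1 and Gzma, were detected in the NK cells of each library. Gzma was the most abundant of them. The 6 genes summed to 14819, 9550, 10673 and 11232 UMIs per 1000000 (CPM) in NK cells, against 4296, 2269, 4911 and 4515 in ILC1 chosen by the mirror gate. CD8 T cells held 384, 1514, 2569 and 1310 CPM and B cells 16.2, 9.18, 13.1 and 9.15 CPM of the same genes. Since 4 of the 6 genes belong to the gate, and CD8 T and B cells were required to lack Ncr1, these sums are partly set by the selection; Prf1 and Gzma are the 2 free of it. Cells at the edge of the gate varied in Gzma. In the young library the 47 NK cells with 2 UMIs over the 4 NK genes held 9421 CPM of Gzma, and the 26 cells left outside with 1 such UMI and no ILC1 UMI held 10345. The 13 young cells with 1 UMI of each gene set and the 44 with Ncr1 but no UMI of either, all outside, held 4638 and 3108 CPM of Gzma. In the miR-146a-/- library the 32 NK cells with 2 such UMIs held 10414 CPM and the 393 with 4 or more held 6861.

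The contrast of NK cells with ILC1 is a description, since the gate draws it. Of 3340 genes, 69 were at least 2-fold higher and 90 at least 2-fold lower in NK cells in all 4 libraries. The mast cell protease gene Cma1 had the largest contrast, with 292 CPM in young NK cells and 1.86 in ILC1. S1pr5, whose receptor lets NK cells leave tissue, held 308 and 4.65 CPM, and the Ly49 gene Klra1 169 and 2.32. Klra7, Klrg1, Rap1gap2, As3mt, Sh2d1a and Itgam were also among the 10 highest. Among the 10 lowest in NK cells were Tmem273, the ILC1 transcription factor gene Zfp683, Cd200r2, Gm43042, Tmem176b, Tmem176a, Sema6d, Ckb and Podnl1. Zfp683 held 4.13 CPM in young NK cells and 216 in ILC1.

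The knockout of Ccl5 was visible in NK cells. Ccl5 stood at 18564, 12470 and 17894 CPM in the young wild-type, DEN/diet wild-type and miR-146a-/- libraries and at 94.7 (95% interval 87.3 to 103) in the double knockout. After thinning each cell to 2000 UMIs, 99.7%, 97.2%, 98.9% and 17.9% of NK cells had a Ccl5 UMI, against 10.3%, 11.9%, 5.48% and 2.51% of B cells. No gene row covers miR-146a, and its absence from NK cells was therefore not checked.

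NK cells made up a smaller share of the kept cells in DEN/diet livers than in young liver. The share was 8.76% (95% interval 8.22 to 9.33) in young wild-type, 6.89% (6.36 to 7.46) in DEN/diet wild-type, 5.79% (5.28 to 6.33) in miR-146a-/- and 6.44% (5.96 to 6.94) in the double knockout. The difference of DEN/diet wild-type from young was -1.87 points (-2.64 to -1.10). Between miR-146a-/- and wild-type it was -1.10 points (-1.85 to -0.349), but -0.235 (-0.862 to 0.393) when cells were thinned to 2000 UMIs before gating, so this step depended on depth. The double knockout differed from miR-146a-/- by 0.647 points (-0.0675 to 1.35), by -0.0624 (-0.657 to 0.522) after thinning, and by 0.674 (0.114 to 1.23) without cells that carried other lineage markers.

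The balance between NK cells and ILC1 moved away from NK cells in DEN/diet wild-type liver. NK cells were 58.2% (55.7 to 60.7) of NK cells plus ILC1 in young liver and 44.8% (42.1 to 47.6) in DEN/diet wild-type, a difference of -13.4 points (-17.0 to -9.67). They were 50.9% (47.6 to 54.2) in miR-146a-/- and 46.1% (43.4 to 48.8) in the double knockout. The 2 knockout steps were 6.06 points (1.78 to 10.3) and -4.79 points (-8.98 to -0.577). Without cells that carried other lineage markers they were 4.14 (-1.60 to 9.85) and -3.16 (-8.74 to 2.47), so both intervals then included 0, and thinning before gating gave -10.5 for the second. ILC1 made up 6.29% of kept cells in young liver and 8.48% in DEN/diet wild-type. They made up 5.59% in miR-146a-/- and 7.52% in the double knockout. The knockout steps in the balance therefore do not by themselves show a gain or loss of NK cells.

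**Figure D1:**
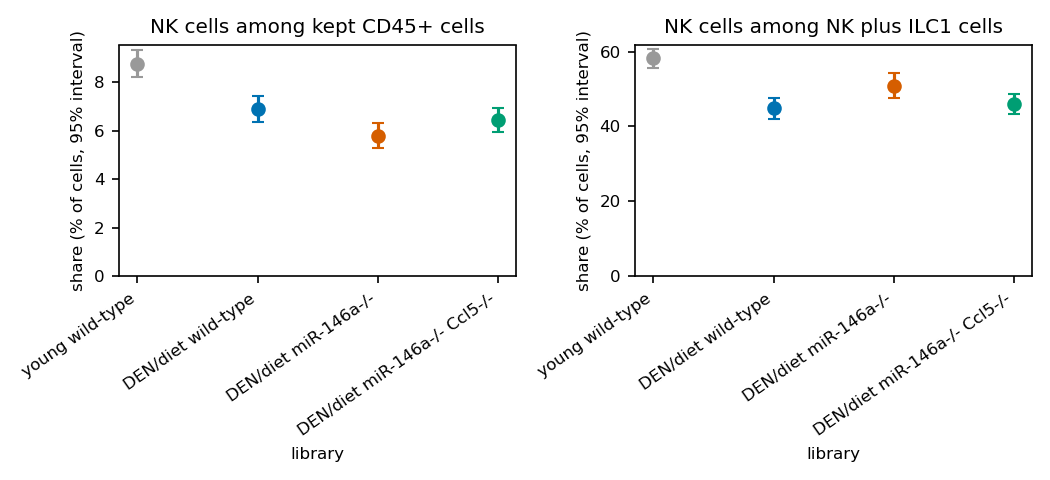
NK cells fell from 8.76% to 6.89% of kept cells between young and DEN/diet wild-type liver, and from 58.2% to 44.8% of NK cells plus ILC1. Bars are 95% intervals of counting error.

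Between young and DEN/diet wild-type mice, 25 of 3608 tested genes were at least 2-fold higher in NK cells (0.693%) and 16 at least 2-fold lower (0.443%). Without cycling NK cells, a setting chosen after seeing the data, 9 were higher and 21 lower. Of the 15 mature NK genes tested, 0 were called higher and 6 lower, and all 15 had negative log2 ratios with a median of -0.88, beside 0.00 for all tested genes. NK cells of DEN/diet liver thus held less RNA of the mature program. The 6 that fell were Ly6c2 (log2 ratio -1.57), Cx3cr1 (-1.41), S1pr5 (-1.30), Cma1 (-1.12), Itgam (-1.08) and Klrg1 (-1.02). Cx3cr1 encodes a chemokine receptor and S1pr5 a receptor that lets NK cells leave tissue, and Itgam and Klrg1 define the late NK stages. The transcription factor genes of the same stages were short of the 2-fold call: Zeb2 went from 461 to 250 CPM and Tbx21 from 498 to 350, while Eomes, a gate gene, was 349 and 370. Klf2, which drives S1pr transcription, went from 2291 to 1329 CPM. Itgam UMIs were found in 41.1% of thinned NK cells in young liver and in 20.8%, 26.9% and 29.4% in the 3 DEN/diet libraries, against at most 2.97% of B cells. Without thinning the Itgam shares were 72.6%, 50.2%, 53.6% and 57.1%.

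Genes of immature NK cells stood on the other side. Of 12 tested, 3 were called higher and 0 lower, and all 12 had positive ratios with a median of 0.79, beside 0.00 for all tested genes. Emb (1.41), the lymphotoxin gene Ltb (1.25) and the transcription factor gene Tcf7 (1.01) rose in NK cells, Tcf7 so close to the limit that it was not called under TMM scaling (0.99). Cd27 went from 57.4 to 103 CPM and Kit from 36.2 to 69.5 without passing the call. Per thinned NK cell, the median count of mature-list UMIs was 23 in young and 12 in DEN/diet wild-type liver, and that of immature-list UMIs 3 and 7. The medians in miR-146a-/- NK cells were 11 and 9 and in the double knockout 12 and 7. NK cells with more immature-list than mature-list UMIs made up 13.6% (11.4 to 16.02) in young, 35.2% (31.3 to 39.3) in DEN/diet wild-type, 44.3% (39.7 to 49.1) in miR-146a-/- and 41.3% (37.4 to 45.2) in the double knockout. The same share was 29.1%, 40.0%, 39.7% and 42.6% in B cells, where both counts are low. Both counts add UMIs over a list, so abundant genes weigh most in this share. Gene by gene, miR-146a-/- over wild-type NK cells had median log2 ratios of 0.16 for the mature and 0.07 for the immature list. No change of stage with genotype is therefore read from the share. In ILC1 the same counts were 7 and 18 in young and 5 and 19 in DEN/diet wild-type liver, and in B cells 5 and 4, then 4 and 4. Of 13 immature NK genes tested in ILC1, 3 were called higher and 0 lower, 5 were negative and the median was 0.43, beside -0.06 and 0.946% called higher for all genes tested there. CD8 T cells went the other way, with 0 of 13 higher, 3 lower and a median of -0.68, beside 0.06 and 0.984% called lower for all genes tested there. ILC1 had Emb at a ratio of 1.78, but Ly6c2 at 1.05, opposite to NK cells.

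**Figure D2:**
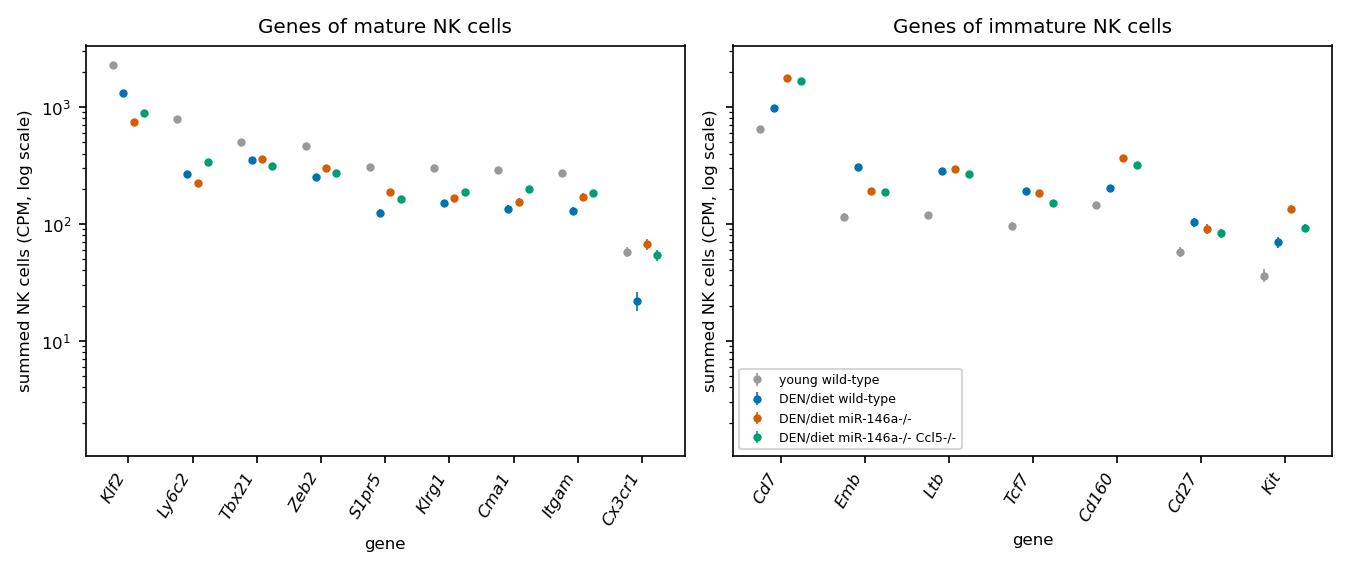
The mature NK genes drawn were lower and the immature NK genes drawn higher in DEN/diet wild-type than in young liver. Ly6c2 was at 796, 268, 223 and 339 CPM and Ltb at 119, 282, 293 and 266 CPM in young wild-type, DEN/diet wild-type, miR-146a-/- and double knockout.

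More NK cells of the DEN/diet wild-type library were cycling. Of 10 cycling genes tested, 8 were higher and 0 lower, with a median log2 ratio of 1.34 beside 0.00 for all tested genes. Mki67, which marks dividing cells, rose with a ratio of 1.82, the kinetochore gene Cenpf with 2.20 and Top2a with 1.39. Cdk1, Ube2c, Ccnb2, Cks1b and Ccna2 were also among the 10 largest rises in NK cells. The share of thinned NK cells with at least 2 UMIs over the 12 cycling genes was 5.06% (3.71 to 6.71) in young and 13.3% (10.6 to 16.4) in DEN/diet wild-type liver. It was 9.80% (7.21 to 12.9) in miR-146a-/- and 10.95% (8.62 to 13.7) in the double knockout. Thinning left out 11, 3, 4 and 4 NK cells. The step from young to DEN/diet wild-type went the same way in the other cells, from 4.17% to 7.27% in ILC1, 8.33% to 12.7% in CD8 T cells and 3.21% to 7.02% in B cells.

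Cytotoxic granule genes of NK cells did not reach the 2-fold call in DEN/diet wild-type liver. Of 12 tested, 0 were called either way, 9 were negative and 3 positive (Serpinb6b, Srgn and Lamp1, at most 0.23), with a median log2 ratio of -0.25 beside 0.00 for all tested genes. Gzma, the most abundant granzyme gene, had 10302 CPM in young and 6483 in DEN/diet wild-type NK cells, Gzmb 1535 and 866, and the perforin gene Prf1 1335 and 758. CD8 T cells went the opposite way, with Prf1 at 69.4 and 173 CPM and Gzmb at 317 and 1255. The chemokine genes Ccl4 and Ccl3 had 4688 and 3157 and then 1593 and 1101 CPM in NK cells, and Xcl1 648 and 966. Of 8 cytokine and chemokine genes tested, only Ltb was called. Ifng was at 374 and 320 CPM, so NK cells differed little in interferon gamma RNA.

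Among inhibitory checkpoint genes, Entpd1 (-1.41) and Klrg1 (-1.02) fell in NK cells, while Tigit went from 61.0 to 111 CPM. The activating receptor gene Crtam was just past the call, from 50.6 to 102 CPM (1.00), and short of it under TMM scaling (0.99). Dscam, which encodes a cell adhesion molecule, rose from 13.9 to 50.6 CPM in NK cells and from 10.7 to 151 in ILC1. Kcnj8, a potassium channel gene, and Serpinb9b, an NK-restricted serpin gene with at most 0.232 CPM in ILC1, fell with ratios of -1.68 and -1.41. The remaining large falls were of erythroid and B cell genes. All 1789 Hbb-bs UMIs and all 347 Hbb-bt UMIs of young NK cells lay in 1 cell. The 3 erythroid markers summed to 350 CPM in young NK cells and to 0.908, 1.68 and 1.27 in the others, with Hbb-bs on top in the young library. The B cell genes Cd79a and Ly6d fell with ratios of -2.32 and -3.77, and all 5 B cell markers were detected in each library with sums of 142, 39.6, 14.3 and 154 CPM, Cd79a being most abundant in the 2 wild-type libraries. The part of these cells in the NK ratios was not tested.

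The Ly49 repertoire was read beyond the gate genes Klra4 and Klra8. In DEN/diet wild-type liver 29.1% of thinned NK cells had no UMI of the other Ly49 genes, against 18.3% in young liver, 16.04% in miR-146a-/- and 14.6% in the double knockout. A cell without a UMI may still express the gene. DEN/diet wild-type NK cells had the fewest such genes detected at this depth, with a mean of 1.098 per cell. The means were 1.27 in young, 1.37 in miR-146a-/- and 1.42 in double knockout NK cells. Klra9 UMIs were found in 39.1% of young NK cells and in 23.8%, 27.8% and 31.7% of the other libraries, or 56.6%, 37.1%, 44.6% and 48.9% without thinning. Klra7, which encodes Ly49G2, was found in 41.8%, 40.1%, 52.1% and 48.4% of thinned NK cells and in 52.3%, 52.3%, 66.2% and 62.8% of all. At most 0.458% of thinned B cells had a Klra7 UMI; their median depths were 5661, 6993, 7106.5 and 6721.5 UMIs. No Ly49 gene passed the 2-fold call in NK cells in any comparison; of 4 tested, the median log2 ratio was -0.16, then 0.47, then 0.08, beside 0.00 for all tested genes each time. Klra8, the Ly49H gene used in the gate, was at 657, 363, 605 and 534 CPM, and its share of thinned NK cells was 55.2%, 38.0%, 47.2% and 47.1%, values that the gate itself conditions.

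**Figure D3:**
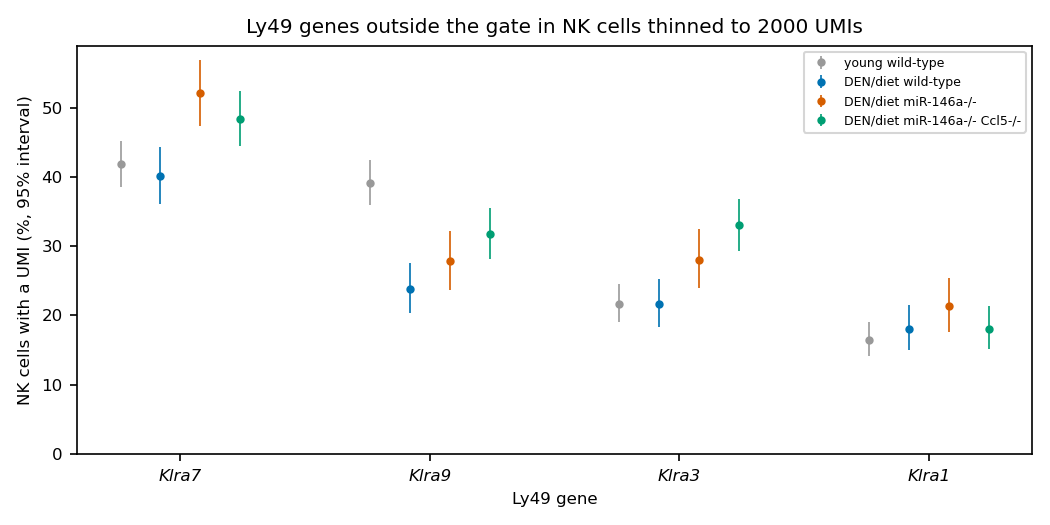
Klra9 UMIs were found in fewer NK cells of DEN/diet wild-type liver (23.8%) than of young liver (39.1%), while Klra7 stood at 40.1% and 41.8%. Cells were thinned to 2000 UMIs and bars are 95% intervals of counting error.

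Between miR-146a-/- and wild-type DEN/diet mice, 12 of 3589 tested genes were at least 2-fold higher in NK cells (0.334%) and 53 at least 2-fold lower (1.48%). Among the 16 gene lists, immediate-early and stress genes held the most falls. Of 18 tested, 0 were higher and 12 lower, and all 18 were negative with a median of -1.39 beside 0.00 for all tested genes. These genes are transcribed within minutes of activation or of stress. Fos fell from 1018 to 151 CPM (log2 ratio -2.76), Fosb with a ratio of -2.67, the phosphatase gene Dusp1 with -2.65 and the nuclear receptor genes Nr4a1 and Nr4a3 with -2.32 and -1.98. Zfp36, which encodes an RNA-destabilizing protein, fell with -1.95, Junb with -1.45, Jun with -1.41, Nr4a2 with -1.36, Ier2 with -1.31 and Btg2 with -1.20. Atf3, Rgs2, Csrnp1, Gramd3, Cxcr4 and Gm47283 were also among the 10 largest falls in NK cells. The share of thinned NK cells with a Fos UMI went from 63.2% to 21.6% (88.7% to 49.2% without thinning), so the fall ran through much of the NK population. The double knockout NK cells kept the low level, with 213 CPM and 23.2% of cells.

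The fall was not confined to NK cells. The median log2 ratio of the immediate-early and stress genes tested was -1.63 in ILC1, -0.63 in CD8 T cells and -0.64 in B cells, with 14 of 17, 4 of 17 and 7 of 16 genes called lower. Of all genes tested in these types, 1.65%, 1.54% and 2.35% were called lower. Fos had a ratio of -3.32 in ILC1, -2.31 in CD8 T cells and -1.81 in B cells. NK cells and ILC1 therefore showed the deepest falls of the 4 types. Zfp36, Nfkbia and Btg2 had ratios of -0.38, -0.20 and -0.07 in B cells, against -1.95, -1.63 and -1.20 in NK cells. The 3 neutrophil markers summed to 0.501 CPM in wild-type and 1773 in miR-146a-/- B cells (1 and 3 detected, S100a9 most abundant), and their part in the B cell ratios was not tested. In CD8 T cells they summed to 0.583 and 162 CPM and in NK cells to 0.363 and 9.66, and their part there was not tested either. Tissue handling also induces such genes, and its part and that of genotype cannot be told apart with 1 library each.

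**Figure D4:**
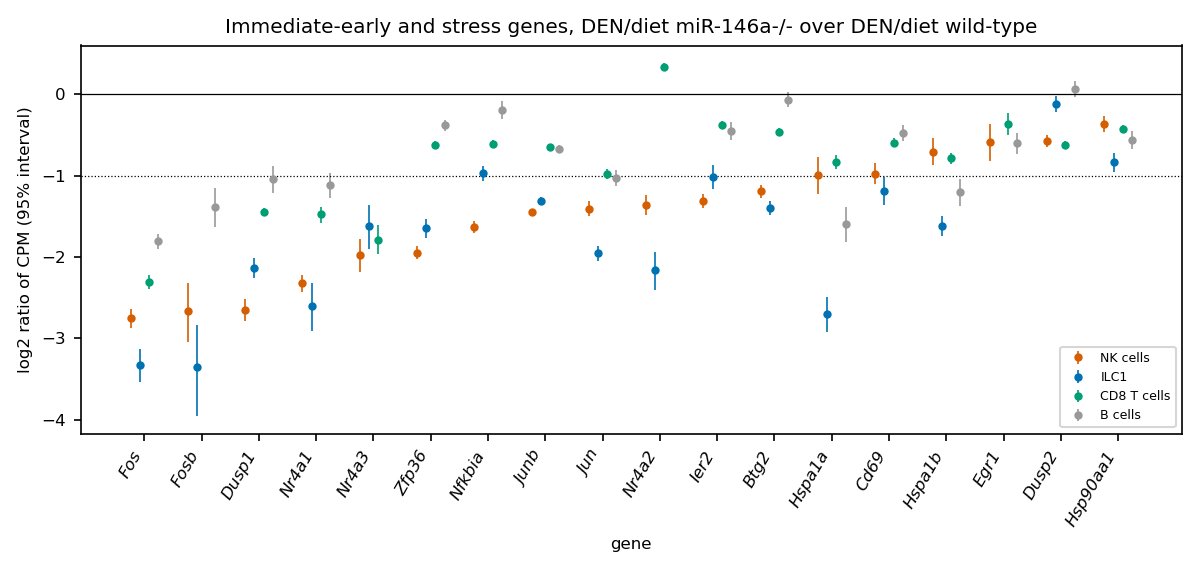
Immediate-early and stress genes were lower in miR-146a-/- than in wild-type DEN/diet mice in NK cells (median log2 ratio -1.39) and ILC1 (-1.63), and less so in CD8 T cells (-0.63) and B cells (-0.64). The dotted line marks the 2-fold call.

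The promoters of the immediate-early genes were read for the cyclic AMP response element (CRE), TGACGTCA, its shorter form TGACG on either strand, and the CArG box bound by serum response factor. Of 14 list genes with a promoter entry (the first where a gene has several), 2 held the full CRE within 250 bases before the start, 8 the shorter form and 1 the CArG box; Egr1, Ier2, Cd69 and Hsp90aa1 had no entry. Among all 32851 promoters of that length the shares were 1.55%, 17.8% and 1.47%. The 4 promoters below belong to genes that fell in NK cells, and capitals mark the matches. They are from RefSeq on GRCm38.p6, written 5′ to 3′ on the gene strand: Fos at chr12:85473640-85473889 (plus), Nr4a1 at chr15:101266596-101266845 (plus), Dusp1 at chr17:26508473-26508722 (minus) and Zfp36 at chr7:28379229-28379478 (minus). Fos holds 2 short forms and Nr4a1 4, Dusp1 1 full CRE and 1 further short form, and Zfp36 1 CArG box. A match describes the sequence, sites beyond these 250 bases were not read, and no binding in NK cells was measured.
Fos promoter: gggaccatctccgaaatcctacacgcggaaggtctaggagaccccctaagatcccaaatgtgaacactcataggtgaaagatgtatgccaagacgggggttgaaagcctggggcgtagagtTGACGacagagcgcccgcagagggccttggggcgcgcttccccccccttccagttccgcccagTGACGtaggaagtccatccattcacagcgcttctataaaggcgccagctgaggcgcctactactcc
Nr4a1 promoter: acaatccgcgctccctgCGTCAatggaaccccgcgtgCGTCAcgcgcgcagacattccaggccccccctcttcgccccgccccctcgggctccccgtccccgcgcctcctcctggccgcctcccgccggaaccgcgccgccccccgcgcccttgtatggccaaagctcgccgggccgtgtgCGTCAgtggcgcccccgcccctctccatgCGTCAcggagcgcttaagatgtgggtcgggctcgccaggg
Dusp1 promoter: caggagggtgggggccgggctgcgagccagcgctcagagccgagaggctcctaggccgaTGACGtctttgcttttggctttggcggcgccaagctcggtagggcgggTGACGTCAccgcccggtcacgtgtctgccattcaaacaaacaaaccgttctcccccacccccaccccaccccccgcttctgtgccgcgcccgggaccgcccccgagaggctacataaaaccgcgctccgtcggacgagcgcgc
Zfp36 promoter: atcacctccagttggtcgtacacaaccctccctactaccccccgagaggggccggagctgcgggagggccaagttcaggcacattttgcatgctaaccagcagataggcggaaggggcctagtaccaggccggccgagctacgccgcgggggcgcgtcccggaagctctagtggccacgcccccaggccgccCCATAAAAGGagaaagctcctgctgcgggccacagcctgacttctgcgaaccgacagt

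Genes of the pathway that miR-146a targets did not rise in NK cells. Of 8 tested, 0 were higher and 2 lower, with a median log2 ratio of -0.43 beside 0.00 for all tested genes. The target gene Irak1 stood at 75.9 CPM in wild-type and 84.2 in miR-146a-/- NK cells, Irak2 at 119 and 82.5, and Traf6, below the floor of the test, at 37.4 and 29.8. The 2 that fell, Nfkbia (-1.63) and Tnfaip3 (-1.53), are themselves NF-kB-induced feedback inhibitors. Nfkbia is also counted among the immediate-early and stress genes.

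The called rises in NK cells of miR-146a-/- mice followed no single list. Of 9 cytokine and chemokine genes tested, 1 was higher (Csf2) and 1 lower (Ifng), with a median log2 ratio of 0.06 beside 0.00 for all tested genes. All 5 inhibitory checkpoint genes tested were positive, with a median of 0.36 and 1 called higher (Lag3). All 4 Ly49 genes tested were positive too, with a median of 0.47 and 0 called. Csf2, which encodes the growth factor GM-CSF, rose most, from 18.5 to 74.97 CPM (2.01), and the checkpoint gene Lag3 from 15.4 to 54.4 (1.81). In ILC1, Csf2 was at 45.0 and 42.1 CPM and Lag3 at 134 and 150, and the difference between the 2 types was not tested. A single NK cell held 20 of 102 Csf2 UMIs in wild-type, and 1 held 57 of 357 in miR-146a-/-. Cx3cr1 rose from 21.8 to 67.2 CPM (1.62), beside 57.9 in young NK cells. St6galnac3 (1.32), Ugt1a7c (1.21), Dscam (1.17) and Gm36723 (1.13) were further rises in NK cells, and St6galnac3 and Gm36723 were more abundant in ILC1 than in NK cells of the same library, at 396 and 860 against 163 and 221 CPM. Cd7, Cd160, Kit and Crtam, all short of the call, went from 972 to 1778, 203 to 367, 69.5 to 134 and 102 to 184 CPM. Spp1, the osteopontin gene, rose in NK cells (1.18, or 0.49 without cells that carried other lineage markers) and fell in ILC1 (-1.20).

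Cd3g (1.15) and Cd3d (1.05) also rose in NK cells of miR-146a-/- mice. Of 9 T cell markers 7 were detected in NK cells, with Trbc1 most abundant and the gate genes Cd3e and Cd8b1 at 0. The 9 summed to 196, 277, 371 and 326 CPM in the 4 libraries, but the 7 other than Cd3d and Cd3g summed to 138, 203, 211 and 183. Trbc1 stood at 95.8 CPM in wild-type and 119 in miR-146a-/- NK cells. The 6 ILC1 markers summed to 73.7 CPM in wild-type and 102 in miR-146a-/- NK cells. The parts of T cells and of ILC1 in these NK values were not tested. Cd3g UMIs were found in 4.90% of thinned NK cells in wild-type and 10.5% in miR-146a-/- liver, against 1.37% and 0.457% of B cells, and in 9.76% and 15.9% of NK cells without thinning.

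The interferon gamma gene Ifng fell in NK cells of miR-146a-/- mice from 320 to 153 CPM (-1.07), and in ILC1 from 193 to 79.2, while CD8 T cells held 147 and 149. Of 9 cytokine receptor genes tested in NK cells, 0 were called, 3 were positive and 6 negative, with a median log2 ratio of -0.19 beside 0.00 for all tested genes. Among them, Il12rb2 and Il18r1, whose ligands induce Ifng, had 292 and 191, and 146 and 87.6 CPM. A link of these receptor genes to the fall of Ifng was not tested. Of 7 interferon-stimulated genes tested, 0 were higher and 1 lower, with a median log2 ratio of -0.07 beside 0.00 for all tested genes. The one that fell, Ifi47 (-1.20), had ratios of -1.36 in ILC1, -1.02 in CD8 T cells and -1.25 in B cells. Cytotoxic granule genes of NK cells were level, with 0 of 12 called and a median of 0.09 beside 0.00. Mature NK genes had a median of 0.16 beside 0.00, with 1 of 15 higher (Cx3cr1) and 0 lower, and immature NK genes 0.07 beside 0.00, with 0 of 12 called.

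Gzma was spread more unevenly among NK cells of the DEN/diet libraries. Its variance over mean in thinned NK cells was 9.09 in young, 12.7 in DEN/diet wild-type, 19.3 in miR-146a-/- and 17.0 in double knockout liver. Between DEN/diet wild-type and miR-146a-/- NK cells, Gzma stood at 6483 and 7009 CPM while the share of thinned cells with a UMI was 79.9% and 61.5%, so no order of the 2 libraries is read from the share. B cells had Gzma UMIs in 1.53% and 1.60% of thinned cells, and the unthinned NK shares were 81.9% and 64.9%. Gzma ranked 5 of 2837 genes by this measure, after Ccl4, Cdk8, Cmss1 and Gm42418 and before Ccl3, Xcl1, Ly6c2, Gzmb and Actb.

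Loss of Ccl5 in addition to miR-146a left NK cells with few changes. Of 3503 tested genes, 9 were at least 2-fold higher (0.257%) and 1 at least 2-fold lower (0.0285%). The 9 include Jchain and Igkc, each with most of its UMIs in 1 cell. The counts were 4 higher and 5 lower without the NK cells that carried other lineage markers (192 of 453 and 239 of 634), and 3 and 2 without cycling NK cells. The gene that fell was Ccl5 itself, with log2 ratios of -7.56 in NK cells, -7.49 in ILC1 and -7.41 in CD8 T cells. Of 9 cytokine and chemokine genes tested, 0 were higher and 1 lower, and all 9 were negative with a median of -0.30 beside 0.00 for all tested genes. The chemokine genes Ccl4 and Ccl3 went from 2363 to 1300 and from 794 to 570 CPM in NK cells. In ILC1 they went from 2299 to 1381 and from 669 to 381 CPM. All 3 genes lie together on GRCm38: Ccl5 at chr11:83525778-83530518, Ccl3 at chr11:83647844-83649355 and Ccl4 at chr11:83662584-83664683, and whether the deletion altered its neighbours was not tested.

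**Figure D5:**
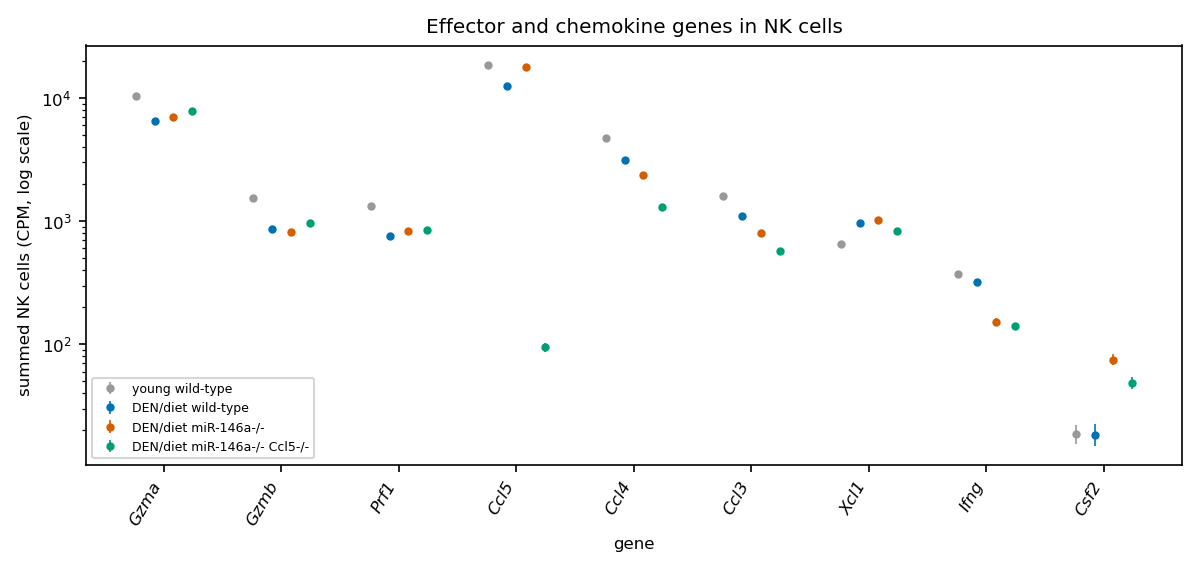
Ccl5 in NK cells stood at 94.7 CPM in the double knockout and at 17894 in miR-146a-/-, while Gzma was at 7770 and 7009. Bars are 95% intervals of counting error.

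Of the largest rises in double knockout NK cells, Jchain, a plasma cell gene, had 709 of its 738 UMIs in 1 cell, and 570 of 653 Igkc UMIs also lay in 1 cell. Gm47283 (1.76), Gm42031 (1.70) and Camk2b (1.52) rose in the other cell types too, with ratios of 2.06, 1.36 and 1.59 in ILC1, 2.003, 2.45 and 1.69 in CD8 T cells and 2.04, 1.33 and 1.45 in B cells, so these 3 rises were not particular to NK cells. Gm47283 had first fallen from 59.7 to 14.9 CPM in miR-146a-/- NK cells and stood at 50.7 in the double knockout. Gm47283 is annotated on chromosome Y although all mice were female, and the origin of its UMIs was not tested. Glipr1 (1.05) returned to 84.3 CPM in NK cells after a fall from 100 to 40.5 in miR-146a-/-. The class II genes H2-Aa and H2-Eb1, at 34.7 and 34.0 CPM in miR-146a-/- NK cells and 67.0 and 62.2 in the double knockout, were within the 10 largest ratios without passing the call. Of the 5 dendritic cell markers, 5, 5, 3 and 4 were detected in the NK cells of the 4 libraries, with Cd74 most abundant and sums of 1016, 535, 349 and 549 CPM, and their part was not tested. The immediate-early and stress genes of NK cells had a median log2 ratio of 0.14 beside 0.00, with 0 of 16 called. Dusp1 went from 107 to 213 CPM (0.99), short of the call but past it under TMM scaling (1.01), Egr1 from 52.1 to 26.9 (-0.95, also short of the call) and Nr4a1 from 185 to 176. Cycling genes had a median of 0.41 beside 0.00 with 0 of 8 called, or 0.05 without cells that carried other lineage markers and 0.12 without cycling cells. Csf2 and Lag3 went from 74.97 to 48.5 and from 54.4 to 38.3 CPM in NK cells, Csf2 being among the 10 largest falls without passing the call.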

How the data were processed

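CD45+ liver cells of 4 libraries, 1 per group, were analysed from the deposited UMI count matrices, which the authors made with Cell Ranger 7.0.1 per the file headers (the paper of the series names another version) on mm10. The libraries held 90756272, 103165826, 88706063 and 103147246 UMIs. The NK cells held 6773697, 5508802, 4761620 and 6313755 of them (young wild-type, DEN/diet wild-type, miR-146a-/-, double knockout), so a gene at 50 CPM rested on over 200 UMIs. Cells with 600 to 6000 genes and at most 5% mitochondrial UMIs were kept, and doublets were limited by the 6000-gene limit only. NK cells, ILC1, CD8 T cells and B cells were gated on raw UMIs. CD8 T cells needed Cd3e and Cd8b1, B cells Cd79a and Ms4a1, both without Ncr1 or Csf1r, and B cells served as background for free RNA. Members and gene lists were chosen with earlier results of these data known.

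UMIs were summed over the cells of each type and library and scaled to CPM by total UMIs, with exact Poisson 95% intervals. Log2 ratios used a prior of 0.5 UMIs. A gene was compared when either library of a comparison gave it 50 CPM or more from no fewer than 20 UMIs; gate genes were left out, and the call was 2-fold. The 3 comparisons were DEN/diet wild-type over young, miR-146a-/- over wild-type, and double knockout over miR-146a-/-. With 1 library per group no test was made. Shares carry Clopper-Pearson intervals and differences of shares Newcombe intervals. Shares of cells with a UMI used cells thinned at random to 2000 UMIs. Genes named are those of 16 lists and, per comparison, the 10 largest rises and falls, leaving out mitochondrial, ribosomal, antigen receptor and immunoglobulin genes. Variation was ranked by the lowest variance over mean of the 4 libraries, for genes with a mean of at least 0.1 thinned UMIs.

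Alternatives were TMM scaling, floors of 10 CPM or none, a prior of 5 UMIs, means over cells, stricter gates, other cell limits, leaving out cells with other lineage markers, and thinning. The calls were run on simulated data: all genes changed 4-fold were called and 0 of 3282, 3264 and 3242 unchanged genes. With 1 library per group this covers counting error only, and it holds no spread between mice or libraries. Mx1 has no gene row and was not analysed. Python 3.11.15, numpy 2.4.6, scipy 1.17.1, pandas 2.3.3 and matplotlib 3.10.9 were used, and edgeR 4.0.16 in R 4.3.3 only for the TMM factors. Gene coordinates are from GENCODE M21 and sequences from RefSeq.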

Additional observations from a re-analysis of the deposited data

Results flagged for a closer look

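Ly6c2 and Spp1 moved in opposite directions in NK cells and ILC1 under the same comparison. Ly6c2 had a log2 ratio of -1.57 in NK cells and 1.05 in ILC1 between young and DEN/diet wild-type mice, a difference of -2.62. Spp1 had a ratio of 1.18 in NK cells and -1.20 in ILC1 between wild-type and miR-146a-/- DEN/diet mice, a difference of 2.38. The NK ratio of Spp1 was 0.49 without cells that carried other lineage markers, and 1 NK cell held 103 of 595 Spp1 UMIs in miR-146a-/- and 60 of 303 in wild-type. Both differences rest on 1 library per group and were not tested.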

How the results depend on the processing

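Of 36 share differences under other settings, 34 stayed within the 95% interval of the first value. Thinning to 2000 UMIs before gating moved 2: the miR-146a-/- minus wild-type difference in kept cells to -0.235 points, and the double knockout minus miR-146a-/- difference in NK plus ILC1 to -10.5 points. Of 54 gene counts, 34 stayed within 1.5 times. In order of comparison, the genes higher and lower were 128 and 75, 72 and 144, and 37 and 12 at a floor of 10 CPM, and 267 and 228, 171 and 273, and 129 and 49 without one. In the double knockout comparison they were 5 and 2 by means over cells (71.4% of calls higher, against 9 of 10 first), 4 and 5 without cells with another lineage marker, and 5 lower after thinning. Without cycling cells, a setting chosen after seeing the data, 9 genes were higher in DEN/diet wild-type over young, and 3 higher and 2 lower in the double knockout. Of 417 ratios of named genes, 336 stayed within their intervals and 1 changed sign, Ccna2 in DEN/diet wild-type over young, to -0.62 in NK cells without cycling cells. Cd3d, Cd3g and Cd79a define the cells with another lineage marker and give no value without them. Of 336 list medians, 327 moved by less than 0.25, and 8 of the 9 others were of cycling genes. Shares of cells with a UMI depended on depth, with 203 of 240 outside the first interval at 1000 UMIs or without thinning. Libraries are therefore compared by the thinned shares. The unthinned shares printed beside them come from libraries of different depth.

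With 1 library per group, differences between mice, sorting or handling cannot be told apart from those of treatment or genotype. Mice per library were not stated. The gate misses NK cells without an Ncr1 UMI or with fewer than 2 UMIs over Eomes, Itga2, Klra4 and Klra8, and free RNA and doublets of up to 6000 genes remain. From 192 to 280 NK cells per library carried a UMI of another lineage marker. RNA does not show protein, killing or the stage of a cell, and neither tumour load nor cell numbers per liver were part of the files.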
